A study of Mus musculus with 12 samples.

Results

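Replication-dependent histone genes were examined in the ileum of mouse pups: the protein-coding genes whose names begin with Hist1h, Hist2h, Hist3h or Hist4h and that had at least 1 count in 6 or more of the 12 libraries. The rule was met by 52 of 68 such genes, out of 35275 genes in the count table. The members were 6 genes of linker histone H1, 10 of H2A, 15 of H2B, 10 of H3 and 11 of H4, and 45 of them lay on chromosome 13, 4 on chromosome 3, 2 on chromosome 11 and 1 on chromosome 6. Of the 16 genes left out, 8 had no count in any library. Just outside the rule were Hist1h2an and Hist1h4f, with counts in 5 libraries and totals of 9 and 15 counts, and just inside it were Hist1h1t, Hist1h2bl, Hist1h2bn and Hist1h2bm, with counts in 7 libraries and totals of 7, 12, 14 and 17 counts.

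The RNA came from the ileum, where the small intestine ends, of C57BL/6 pups at postnatal day 14. Stressed pups are those of dams that had been restrained daily for 2 h between gestational days 7 and 19, and control pups those of dams that stayed undisturbed at home, so stressed describes the mother. Each of 3 stressed and 3 control dams gave 1 male and 1 female pup, and the 4 groups of each sex and arm held 3 libraries apiece. The design asks what restraint during pregnancy does to expression in the gut of the young. A library is numbered here by its dam within the arm, and the 2 littermates share a dam.

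Core histones H2A, H2B, H3 and H4 form the protein spool around which DNA is wound, and H1 binds where the DNA enters and leaves it. The replication-dependent genes supply these proteins while DNA is being copied, and most of their mRNAs end in a conserved stem-loop in place of a poly(A) tail. Some of these genes can also give mRNAs with a poly(A) tail, from sites further downstream, in cells that are no longer dividing. In the ileum, dividing cells lie mainly in the crypts, below a lining of differentiated cells. No source used here says whether RNA was selected by its poly(A) tail, so levels below are levels in these libraries. In bulk tissue, fewer cells of a type and less RNA per cell cannot be told apart.

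A stem-loop was looked for in the transcripts that GENCODE M21 (GRCm38) gives for these genes, as 16 bases with arms of 6 fully paired bases and a loop of 4, after the stop codon. The first 2 bases had to be GG, and the first 2 of the loop T or C, so other forms would be missed. One was found in 37 of the 52 members, beginning 21 to 54 bases after the stop codon. The following 6 are shown because they belong to members that the results turn on and because they hold both kinds of stem; capitals mark the stem-loop, and 5 bases are given on each side.
Hist1h1c: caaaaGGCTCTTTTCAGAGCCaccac
Hist1h2ac: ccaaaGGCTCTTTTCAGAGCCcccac
Hist1h2be: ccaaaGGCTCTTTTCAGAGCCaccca
Hist2h3c2: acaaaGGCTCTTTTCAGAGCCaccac
Hist1h4h: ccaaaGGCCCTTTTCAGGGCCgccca
Hist1h4i: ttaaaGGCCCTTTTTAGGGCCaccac
All of these are 5′ to 3′ on the strand of the gene. The stem-loop of Hist1h1c lies on the plus strand at chr13:23739512-23739527 and that of Hist1h4i on the minus strand at chr13:22040966-22040981, both in the untranslated 3′ end of a single exon. Stems of H1, H2A, H2B and H3 members opened with GGCTC, of which the GG was set by the search. Stems of H4 members opened with GGCCC, apart from Hist1h4j, where they opened with GGTCC. The form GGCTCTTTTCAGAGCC was present in 19 members, in all families but H4, and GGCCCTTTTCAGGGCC in 6 members of H4. In the highest member of all, Hist1h2bc, no stem-loop of this form was found in its M21 transcript, which has 2 exons. None was found in the single exon of Hist2h2be. Only transcripts were searched, so a stem-loop in a stretch spliced out of them would be missed.

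Few of the members were abundant. Levels are compared between genes as FPKM, counts divided by the length of the gene and by the total of the library. The mean over the 12 libraries was 142 FPKM for Hist1h2bc (SD 41.9, n = 12) and 90.8 FPKM for Hist1h1c (SD 18.5, n = 12). These were the highest and the second highest member in each of the 12 libraries. The next member, Hist1h4i, stood at 6.34 FPKM (SD 2.24, n = 12), so that Hist1h2bc was 22.4-fold and Hist1h1c 14.3-fold above it. Another 11 members reached a mean of 1 FPKM, and the remaining 38 did not. The median member stood at 0.473 FPKM, against 3.5 FPKM for the 20064 genes that had a count in 6 or more libraries. Hist1h1c held 50.2% and Hist1h2bc 37.6% of the 68983 counts that all members received, and 35 members had a mean under 10 counts a library. Only 28 members had a count in all 12 libraries, and the values of the low members rest on a handful of reads.

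**Figure D1:**
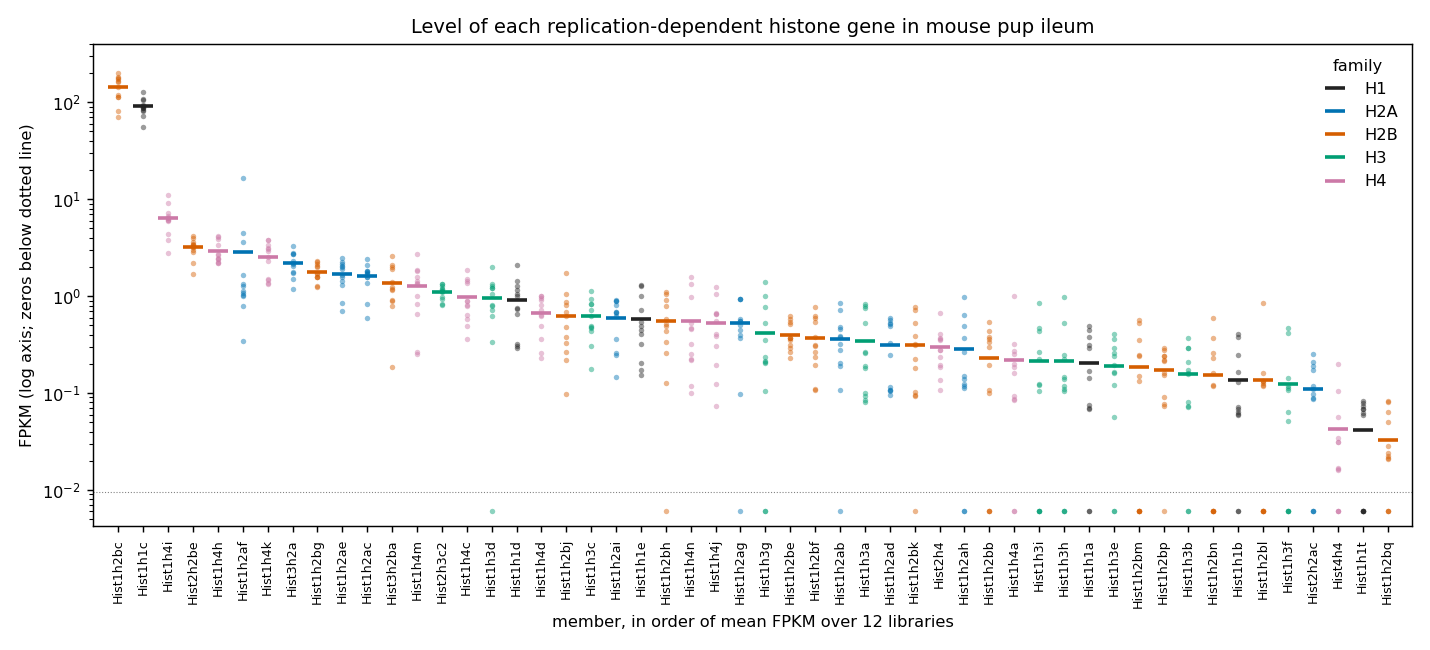
Level of each of the 52 members in FPKM on a log axis, in order of the mean, with a point for each of the 12 libraries and a bar for the mean; zeros are drawn below the dotted line. Hist1h2bc (142 FPKM) and Hist1h1c (90.8 FPKM) stand apart from the rest, of which Hist1h4i (6.34 FPKM) is the highest.

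Among the linker histones, Hist1h1c, which encodes H1.2, ran from 55.8 FPKM through a median of 89.4 to 128.5 FPKM. Hist1h1d, which encodes H1.3, and Hist1h1e, which encodes H1.4, had means of 0.922 FPKM (SD 0.533, n = 12) and 0.586 FPKM (SD 0.406, n = 12). All 12 libraries thus took nearly all of their H1 counts of this class from a single gene. In M21 all of these 3 carry the same 16-base stem-loop, but the counted gene of Hist1h1c runs 840 bases past it, and those of Hist1h1d and Hist1h1e only 28 and 27 bases.

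The H2A members were low. The highest mean was that of Hist1h2af, 2.86 FPKM, but its SD of 4.50 FPKM (n = 12) exceeded it, and the median was 1.21 FPKM. Hist3h2a, from the small cluster on chromosome 11, had a mean of 2.21 FPKM (SD 0.609, n = 12), and Hist1h2ae 1.70 FPKM (SD 0.551, n = 12). Hist3h2a ran from 1.18 through 2.17 to 3.29 FPKM, and its neighbours in the order of levels overlapped this range.

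Within H2B, Hist1h2bc ran from 70.9 FPKM through a median of 154 to 201 FPKM. Hist2h2be, on chromosome 3, had a mean of 3.19 FPKM (SD 0.698, n = 12), and Hist1h2bg 1.79 FPKM (SD 0.359, n = 12). Every library held more Hist1h2bc than any other H2B gene by a wide margin, since the highest value of Hist2h2be was 4.18 FPKM.

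No H3 member was abundant. Hist2h3c2 had a mean of 1.10 FPKM (SD 0.178, n = 12), Hist1h3d 0.948 FPKM (SD 0.519, n = 12) and Hist1h3c 0.618 FPKM (SD 0.274, n = 12). Hist2h3c2 varied little, from 0.804 to 1.32 FPKM, whereas Hist1h3d had no count in 1 library and 1.99 FPKM in its highest.

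Of the H4 members, which encode the most conserved of the core histones, Hist1h4i ran from 2.76 through a median of 6.20 to 11.1 FPKM and ranked between 3 and 5 among all members in each library. Hist1h4h had a mean of 2.90 FPKM (SD 0.761, n = 12) and Hist1h4k 2.55 FPKM (SD 0.936, n = 12). The ranges of these 2 genes overlapped, from 2.19 to 4.15 FPKM and from 1.32 to 3.77 FPKM, and their order is not resolved.

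The length of the counted gene past the stem-loop differed between members. In 24 members it ended within 100 bases of the stem-loop, in 13 it ran further, and in 15 no stem-loop was found. The length was taken along the genome to the outer end of the counted gene. For Hist1h2bp, 1 of the 13, it was 1275 bases, although the M21 transcript that holds its stem-loop ends 38 bases past it. Of these 15, the M21 model of 9 ends at the stop codon and 2 have no protein-coding transcript in M21, so that a stem-loop could be looked for in only 4. Medians were 0.569 FPKM in the set that ended within 100 bases and 0.401 FPKM in the set that ran further. At least 1 FPKM was reached by 5 of the 24 members of the former and 5 of the 13 of the latter. The 4 highest members, Hist1h2bc, Hist1h1c, Hist1h4i and Hist2h2be, were all outside the first set, which holds 24 of the 52 members. The counted gene ran 840 bases past the stem-loop in Hist1h1c and 330 in Hist1h4i, and no stem-loop was found in Hist1h2bc and Hist2h2be. The highest member of the first set was Hist1h4h, with 2.90 FPKM. Hist2h4, whose counted gene runs 1257 bases past its stem-loop, had a mean of 0.298 FPKM and Hist1h2be, with 1789 bases, 0.401 FPKM. Whether the length of the 3′ end had a part in the levels was not tested.

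Histone genes resemble each other, and reads that fit several copies may be lost or misplaced in counting. The read length and the treatment of such reads are not stated in the labels or headers. Each gene's 50-base stretches were looked for in the M21 transcripts of genes that do not overlap it. Stretches shared only with an overlapping gene thus count as its own. The share that occurs in no such other gene had a median of 95.7% in H1, 59.6% in H4, 40.6% in H2B, 33.8% in H3 and 26.1% in H2A. It was 91.5% for Hist1h1c, 52.7% for Hist1h2bc, 71.1% for Hist1h4i, 98.0% for Hist3h2a, 54.2% for Hist1h4h and 20.3% for Hist1h2af. No 50-base stretch of Hist2h2be occurred in a gene that does not overlap it. The median share was 40.1% where the counted gene ended within 100 bases of the stem-loop and 75.4% where it ran further. The levels of members with a low share, above all in H2A and H3, are therefore uncertain.

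Several H2A and H2B genes are transcribed away from each other from a short shared region. In 7 such pairs both genes were members, and pair partners are shown in the plot of neighbouring H2A and H2B genes. Hist1h2ac and Hist1h2bc are separated by 274 bases on chromosome 13, and Hist1h2bc was 88.2-fold higher in mean FPKM and higher in 12 of 12 libraries. Hist2h2ac and Hist2h2be are separated by 238 bases on chromosome 3, and Hist2h2be was 28.9-fold higher, again in 12 of 12 libraries. In both pairs the partners were counted over unlike 3′ ends. The counted genes of Hist1h2ac and Hist2h2ac end 28 and 57 bases past their stem-loops. M21 gives the transcripts of Hist1h2bc and Hist2h2be 742 and 2192 bases after the stop codon. Part of the M21 transcript of Hist1h2bc lies outside its counted gene, so not all of it was counted. Whether the unlike 3′ ends had a part in the differences was not tested. Hist1h2ai was 4.39-fold higher than Hist1h2bl, in 11 of 12 libraries, on mean counts of 4.83 and 1.00 a library. The means of the other 4 pairs lay within 1.05-fold to 1.19-fold of each other, and neither partner was higher in more than 8 of 12 libraries.

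The 300 bases around the starts of Hist1h2ac and Hist2h2ac are printed because they cover the whole gap to the partner and so hold the sequence that both genes of the uneven pairs share. They are from RefSeq (GRCm38.p6), 5′ to 3′ on the minus strand, the strand of the H2A gene, at chr13:23683910-23684209 and chr3:96220831-96221130. Capitals mark the TATA box letters TATAAA, the octamer ATTTGCAT and the CCAAT box, or the reverse complement of each.
Hist1h2ac: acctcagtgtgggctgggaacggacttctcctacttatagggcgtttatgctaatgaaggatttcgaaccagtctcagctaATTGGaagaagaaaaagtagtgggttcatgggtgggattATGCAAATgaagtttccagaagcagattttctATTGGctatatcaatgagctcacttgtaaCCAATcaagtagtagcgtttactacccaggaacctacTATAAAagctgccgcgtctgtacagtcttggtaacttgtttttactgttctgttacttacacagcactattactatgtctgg
Hist2h2ac: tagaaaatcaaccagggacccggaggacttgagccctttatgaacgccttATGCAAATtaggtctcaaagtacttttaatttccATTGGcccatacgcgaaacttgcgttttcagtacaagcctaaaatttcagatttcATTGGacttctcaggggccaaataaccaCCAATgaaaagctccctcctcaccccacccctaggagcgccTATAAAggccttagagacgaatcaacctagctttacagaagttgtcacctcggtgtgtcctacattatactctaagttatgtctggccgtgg
Both stretches hold all of these motifs. Such a window, 250 bases before to 50 after the start, was found for 47 members under the names RefSeq now uses, and the motifs were searched on both strands, each on its own, so that 1 base may count in more than 1 motif. CCAAT was present in 40 of 47 members and in 37.4% of all 32851 RefSeq promoters. It was in all 37 promoters of H1, H2A, H2B and H3 members but in 3 of 10 of H4. TATAAA was in 28 of 47, against 13.6% of all promoters, and in 4 of 6 for H1, 6 of 10 for H2A, 7 of 13 for H2B, 4 of 8 for H3 and 7 of 10 for H4. The octamer ATTTGCAT, the letters bound by POU-domain factors such as Oct1, was in 6 of 10 promoters of H2A and 4 of 13 of H2B, in none of the other families, and in 1.74% of all promoters. Partners of the 7 pairs lie 238 to 301 bases apart, so their windows overlap and 1 motif can count for both genes. The counts are thus not of separate sequences throughout. A match shows the letters only.

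**Figure D2:**
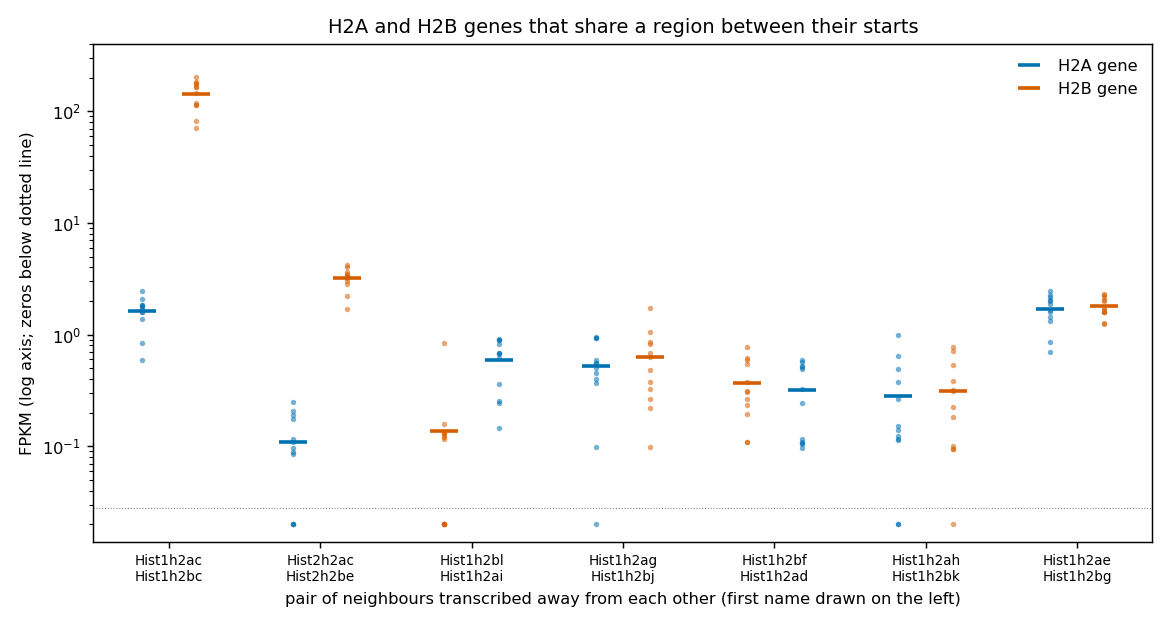
FPKM on a log axis of the 7 pairs of neighbouring H2A (blue) and H2B (orange) genes, with a point for each of the 12 libraries and a bar for the mean; zeros are drawn below the dotted line. In the 2 leftmost pairs, whose partners are counted over unlike 3′ ends, the H2B gene is 88.2-fold and 28.9-fold higher. In the 4 rightmost the partners lie at like levels.

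The libraries held 16423523 to 22975526 counts, and every male library (up to 20075567) was smaller than every female library (from 20730243). Members made up 0.0173% of all counts in stressed male 3 (95% Wilson interval 0.0167% to 0.0180%) and 0.0204% in stressed male 1 (0.0198% to 0.0211%), against 0.0268% to 0.0372% in the other 10 libraries; these intervals cover counting error only. The same libraries gave the lowest shares to mitochondrially encoded genes, 1.16% and 2.18% against 3.01% to 4.59%, and high shares to the noncoding RNA gene Yam1, 4.13% and 1.39%. Control male 1 gave Yam1 1.00% and the other 9 libraries at most 0.5%. Both pups of control dam 3 were rich in 5 genes of the upper small intestine, which summed to 6864 CPM in the male and 2539 CPM in the female and to between 158 and 514 CPM elsewhere; CPM here and below are counts scaled to library size by TMM. Epcam, an epithelial marker, was high in all 12 libraries, at 1227 to 1890 CPM.

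The low share in stressed males 1 and 3 lay in Hist1h1c and Hist1h2bc. Summed over the 52 members the level was 206 CPM in stressed male 1 and 181 CPM in stressed male 3, against 262 to 390 CPM elsewhere. Summed over the 50 members other than Hist1h1c and Hist1h2bc it was 32.1 and 35.4 CPM, inside the range of 28.1 to 45.2 CPM of the other libraries. The highest sum of both kinds was in control female 3.

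Hist1h1c stood at 166, 142 and 195 CPM in control males 1 to 3 and at 113, 137 and 90.8 CPM in stressed males 1 to 3. It stood at 128, 144 and 211 CPM in control females and at 120, 127 and 134 CPM in stressed females. Every stressed male was below every control male, while the female groups overlapped. The highest value in either control group was that of dam 3.

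Hist1h2bc stood at 83.1, 129 and 96.0 CPM in control males and at 60.9, 130 and 54.4 CPM in stressed males. In control females it was 115, 85.2 and 135 CPM and in stressed females 140, 117 and 104 CPM. The groups overlapped in both sexes, and the 3 lowest libraries of all were the Yam1-rich ones, stressed males 1 and 3 and control male 1.

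Hist1h4i stood at 3.18, 4.75 and 7.68 CPM in control males and at 2.82, 4.27 and 2.10 CPM in stressed males, and its 3 lowest libraries were again the Yam1-rich ones. In control females it was 4.36, 4.25 and 8.48 CPM and in stressed females 4.99, 4.58 and 4.29 CPM. The pups of control dam 3 were the highest of their sex, and without them the control values fell inside or close to the stressed range.

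Hist1h2af ran the other way. It had 33, 9 and 9 counts in control males 1 to 3, 29, 8 and 109 counts in stressed males 1 to 3, 15, 11 and 7 in control females and 3, 9 and 9 in stressed females. As CPM these were 1.78, 0.445 and 0.585 in control males, 1.46, 0.393 and 6.92 in stressed males, and 0.130 to 0.617 in females. The 3 libraries with more than 15 counts were the Yam1-rich ones. It was the only 1 of 21 members tested whose 3 highest libraries were these, a pattern that 10.3% of all 16102 genes tested had, and Hist1h2bc and Hist1h4i were the 2 of 21 whose 3 lowest libraries were these, as in 9.45% of all genes. Whether Yam1 content had a part in these values was not tested. M21 places a gene on the opposite strand over Hist1h2af, and the labels and headers do not say whether counting used strand.

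By the range over the 12 libraries, Hist1h2af, Hist1h4i and Hist3h2a varied most among members with a mean of at least 1 CPM. The log2 of highest over lowest CPM, each plus 0.1, was 4.93, 1.97 and 1.39, and that of Hist2h3c2 only 0.68. For Hist2h2be it was 1.18, from 4.64 to 10.7 CPM, both ends of which were stressed males.

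**Figure D3:**
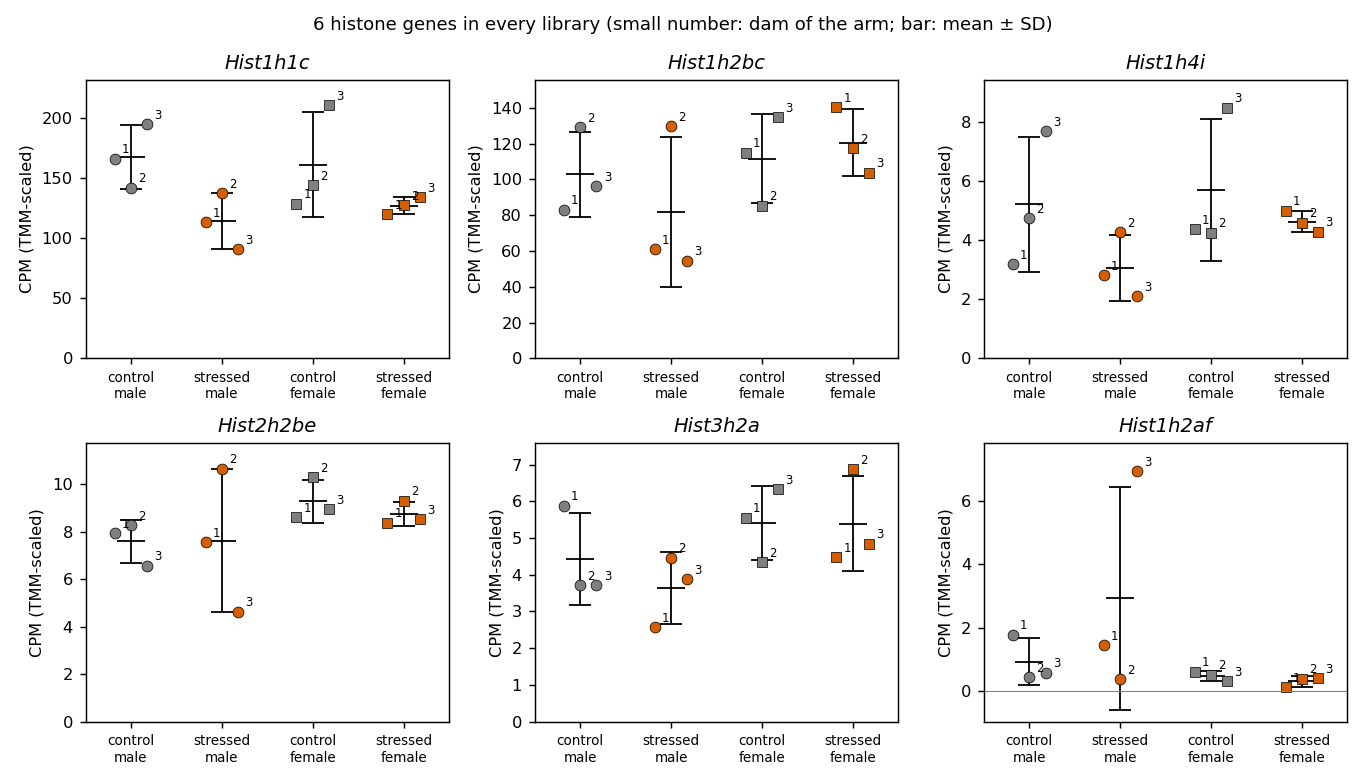
CPM of 6 members in each of the 12 libraries by group, with the number of the dam beside each point and bars for mean ± SD (n = 3). The stressed males of Hist1h1c lie below the control males, dam 3 is highest among control pups for Hist1h1c and Hist1h4i, and Hist1h2af reaches 6.92 CPM in stressed male 3.

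The comparisons between groups were made with edgeR's quasi-likelihood test on counts across all genes, with Benjamini-Hochberg adjustment and a threshold of 0.05. Its filter on low counts kept 21 of the 52 members, those of higher counts, and 31 were not tested. No p-value was taken over the members alone. Each pup of a group came from another dam, so within a sex the stress effect sets 3 litters against 3 litters. The spread behind its p-values was estimated over the groups of both sexes together. Littermates of the other sex thus entered that estimate, as if they were independent pups. For the difference between the sexes and for males against females, the main fit did not pair littermates. A fit with the dam as a block is among the alternatives.

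In males no member passed the threshold in stressed against control pups, nor did any of the 16102 genes (0.0% called). At an unadjusted p under 0.05, 1 member was lower and none higher with edgeR, and the same counts were found with DESeq2 and with limma-voom; over all genes edgeR gave 6.38%. Among the members tested 12 log2 fold changes were above 0 and 9 below, with a median of 0.03, and over all genes 48.3% were below 0, with a median of 0.01. The median over members moved with the filter and the scale, and changed sign with the filter. It was -0.31 when a mean of at least 1 CPM was asked, which keeps fewer members, and 0.24 on log2(FPKM + 0.1). Of the members of highest mean count, Hist1h1c (-0.56), Hist1h2bc (-0.33), Hist3h2a (-0.29), Hist1h4i (-0.75), Hist1h4h (-0.11) and Hist2h3c2 (-0.40) were below 0 in the edgeR fit. In the same set Hist2h2be (0.01) and Hist1h2af (1.61) were above 0. The groups did not overlap in 2 of 21 members, Hist1h1c and Hist2h3c2, both lower in stressed males, and in 5.67% of all genes. Hist2h3c2, an H3 gene, stood at 1.35, 1.29 and 1.30 CPM in control and 0.956, 1.13 and 0.889 CPM in stressed males.

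The 3 members of smallest p in males were Hist1h1c, Hist1h4i and Hist1h2af, none of which passed. Hist1h1c had a mean of 167 ± 26.4 CPM in control and 114 ± 23.2 CPM in stressed males (SD, n = 3), a log2 fold change of -0.56 (SE 0.21; edgeR, unadjusted p = 0.020, adjusted p = 0.75). Without the 3 Yam1-rich libraries, which leaves 1 stressed male, assumed to vary like the other groups, it was -0.29, and without both pups of control dam 3 it was -0.44. For Hist1h4i the means were 5.20 ± 2.28 and 3.06 ± 1.11 CPM and the log2 fold change -0.75 (SE 0.38; edgeR, adjusted p = 0.75). Without both pups of control dam 3 it was -0.37, closer to 0. For Hist1h2af the log2 fold change was 1.61 (SE 0.84; edgeR, adjusted p = 0.75), and it rested on stressed male 3, without which it was -0.023.

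In females no member passed either, nor did any of the 16102 genes (0.0% called). At an unadjusted p under 0.05, 1 member was lower and none higher with edgeR, DESeq2 and limma-voom alike, against 0.298% of all genes with edgeR. Among the members tested 6 log2 fold changes were above 0 and 15 below, with a median of -0.12; over all genes 51.5% were below 0 and the median was 0.00. The groups did not overlap in 1 of 21 members, Hist1h2be, and in 5.56% of all genes.

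Hist1h2be, an H2B gene whose counted model spans 37383 bases, stood at 1.19, 1.37 and 1.59 CPM in control females and at 0.608, 0.881 and 0.692 CPM in stressed females. All stressed females were below all control females, whereas in males the values of 0.756, 0.544 and 1.5 CPM in control and 0.906, 0.884 and 0.889 CPM in stressed pups overlapped. The log2 fold change in females was -0.92 (SE 0.35; edgeR, unadjusted p = 0.023, adjusted p = 1.00). Hist1h1d, at 0.740, 1.04 and 1.64 CPM in control and 0.521, 0.925 and 0.231 CPM in stressed females, had a log2 fold change of -1.01 (SE 0.55; edgeR, adjusted p = 1.00), with groups that overlapped. Leaving out single libraries moved it between -0.64 and -1.61. Hist1h1c had a log2 fold change of -0.34 (SE 0.21; edgeR, adjusted p = 1.00) in females, and without both pups of control dam 3 it was -0.10. The log2 fold change of Hist1h4i in females turned from -0.30 (SE 0.37) to 0.10 without them.

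**Figure D4:**
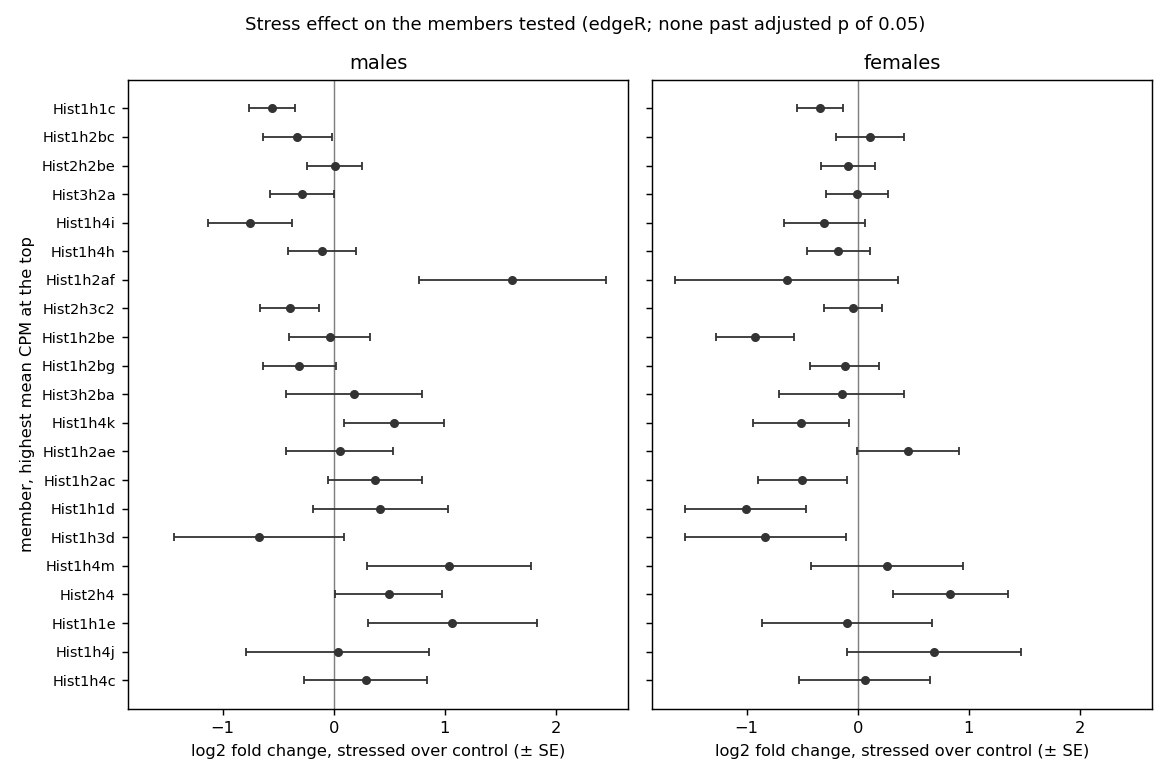
Log2 fold change (± SE, edgeR) of stressed over control pups for the 21 members tested, in males and in females, with the member of highest mean CPM at the top. Most error bars reach or lie near 0; Hist1h1c is at -0.56 in males and -0.34 in females, and the widest bars belong to low members and to Hist1h2af.

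The difference of the stress effect between the sexes, taken as males minus females, passed the threshold in no member and in none of the 16102 genes (0.0% called). No member reached an unadjusted p under 0.05 with edgeR, DESeq2 or limma-voom, against 2.15% of all genes with edgeR. The median over members was 0.09, with 12 above 0 and 9 below. Hist1h2be differed by 0.89 (SE 0.51), Hist1h1d by 1.43 (SE 0.82) and Hist1h2af by 2.25 (SE 1.31) on the log2 scale, and the adjusted p of each was 1.00 with edgeR. With single libraries left out these ran from 0.60 to 1.38, from 1.05 to 2.34 and from 0.62 to 3.12. Hist1h1c, lower in stressed pups of both sexes by its fitted values, differed by -0.21 (SE 0.29).

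Over dams, with the counts of the 2 littermates summed so that 3 stressed were set against 3 control dams, 26 members were tested and none passed, nor did any of 16749 genes (0.0% called). At an unadjusted p under 0.05, 1 member was lower and none higher with edgeR, DESeq2 and limma-voom, against 1.36% of all genes with edgeR. Of the log2 fold changes 10 were above 0 and 16 below, with a median of -0.08 against 0.00 over all genes. Dams did not overlap in 3 of 26 members, Hist1h1c and Hist1h2be lower and Hist1h3c higher in stressed litters, and in 5.68% of all genes. The mean CPM of the littermates of Hist1h1c was 147, 143 and 203 for control dams 1 to 3 and 117, 132 and 113 for stressed dams 1 to 3. Its log2 fold change was -0.44 (SE 0.15; edgeR, unadjusted p = 0.023, adjusted p = 1.00), and -0.25 without control dam 3. That of Hist1h2be was -0.55 (SE 0.26; edgeR, adjusted p = 1.00), and -0.31 without control dam 3. Hist1h3c, an H3 gene with a mean of 6.08 counts a library, stood at 0.149, 0.192 and 0.341 CPM for control and 0.393, 0.346 and 0.401 CPM for stressed dams. Its log2 fold change was 0.71 (SE 0.38; edgeR, adjusted p = 1.00), and 1.14 without control dam 3.

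In the authors' deposited table no member, and no gene at all, had an adjusted p under 0.05 in stressed against control males, in stressed against control females or in all stressed against all control pups. In each of these, 1 member had an unadjusted p under 0.05 and was lower in stressed pups by the authors' deposited table. The shares of all genes with such a p in the authors' deposited table were 1.44% in males, 0.719% in females and 2.29% over all pups. The comparison over all pups covers both littermates of each dam. The labels state no model, so whether littermates stood as separate replicates in it is not known here. For Hist1h1c the authors' deposited table gives log2 fold changes of -0.47 in males, -0.21 in females and -0.37 over all pups.

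Between males and females, 8 of 16102 genes passed (0.0497% called) and no member did. At an unadjusted p under 0.05, 2 members were higher in males and none lower with edgeR, 1 and 1 with DESeq2, and 0 and 1 with limma-voom, against 12% of all genes with edgeR. Of the log2 fold changes 6 were above 0 and 15 below, with a median of -0.09 against 0.00 over all genes. The sexes overlapped in all 21 members, and failed to overlap in 0.255% of all genes. Hist1h2af had a log2 fold change of 2.05 (SE 0.65; edgeR, unadjusted p = 0.009, adjusted p = 0.41), and without the 3 Yam1-rich libraries it was 0.19.

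Hist2h4, an H4 gene on chromosome 3, ran from 0.297 through 0.591 to 1.14 CPM in males and from 0.164 through 0.341 to 0.645 CPM in females, with a log2 fold change of 0.80 (SE 0.35; edgeR, unadjusted p = 0.045, adjusted p = 0.41). Hist3h2a ran from 2.57 through 3.79 to 5.88 CPM in males and from 4.34 through 5.20 to 6.87 CPM in females, with a log2 fold change of -0.43 (SE 0.20; edgeR, adjusted p = 0.41). In both genes the sexes overlapped. Without stressed male 2, the male library highest in Hist1h2bc, 1384 genes passed, and 2 members with them: Hist1h2af at 2.33 (edgeR, adjusted p = 0.037) and Hist1h2bc at -0.58 (edgeR, adjusted p = 0.047). Both calls thus depend on leaving out 1 library, and the males that remain include the 3 Yam1-rich ones.

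The listed histone variants, most of which are made outside DNA replication from mRNAs with a poly(A) tail, were more abundant as a group. The 11 genes listed had a median of 48.9 FPKM, from 4.09 to 182 FPKM, against 0.473 FPKM for the 52 members. H1f0, a linker histone, H3f3b, which encodes H3.3, and H2afz, which encodes H2A.Z, had means of 182, 180 and 172 FPKM, above the 142 FPKM of Hist1h2bc. H3f3b ran from 343 through 457 to 571 CPM, H1f0 from 349 through 432 to 461 CPM and H2afz from 147 through 181 to 226 CPM. None of the 11 passed the threshold in any of the 5 comparisons with edgeR, and none reached an unadjusted p under 0.05.

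Genes of DNA synthesis were read beside the members, since both are used while DNA is copied. Of 43 S phase genes 42 were tested between pups, and none passed in any comparison with edgeR; at an unadjusted p under 0.05, 1 was higher in stressed males and 1 lower over dams. The median log2 fold change was 0.03 in males and -0.06 in females. Pcna, the sliding clamp of DNA polymerases, ran from 60.5 through 103 to 130 CPM, Mcm6, a subunit of the replicative helicase, from 63.7 through 91.1 to 106 CPM, and Dnmt1, the maintenance DNA methyltransferase, from 48.5 through 73.0 to 87.9 CPM. Summed over the list, control male 1 was lowest at 832 CPM, against 1137 to 1353 CPM in the other 11 libraries. The 20 mitosis genes, led by Mki67, Top2a and Cenpf, had medians of 0.13 in males and -0.09 in females, and none passed with edgeR. At an unadjusted p under 0.05, 1 was higher in stressed males, 1 in the difference between the sexes and 1 in males against females. Their sum in control male 1 was 392 CPM against 600 to 795 CPM elsewhere. The members summed to 283 CPM in that library, inside the range of the others, with Hist1h1c at 166 CPM and Hist1h2bc, among its 3 lowest values, at 83.1 CPM.

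The genes that make and end histone mRNAs passed no test either. Of 23 listed genes for transcription and 3′ end formation 22 were tested and none passed with edgeR, while at an unadjusted p under 0.05 there was 1 higher in stressed males and 1 higher and 3 lower in males against females. Their medians were 0.07 for the stress effect in males and -0.05 in females. Sympk, a scaffold of the cleavage machinery, ran from 105 through 123 to 150 CPM, Snrpb, a core protein of small nuclear RNPs, from 65.9 through 112 to 140 CPM, and Upf1, an RNA helicase used in histone mRNA decay, from 78.1 through 95.8 to 123 CPM. The 20 histone chaperones had medians of 0.03 in males and -0.03 in females and none passed with edgeR. At an unadjusted p under 0.05, 1 was higher in stressed males, 1 in the difference between the sexes, and 2 higher and 1 lower in males against females. Rbbp7, a histone-binding protein, ran from 201 through 243 to 255 CPM, Ubn1, of the H3.3 chaperone complex HIRA, from 122 through 163 to 276 CPM, and Nap1l1, a chaperone of H2A and H2B, from 118 through 148 to 162 CPM.

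Markers of other cells and regions were read beside the members. All 5 genes of the upper small intestine had log2 fold changes below 0 in stressed pups of both sexes, with medians of -5.33 in males and -2.02 in females; none passed with edgeR, and 4 in males and 1 in females had an unadjusted p under 0.05. Their summed levels ran from 206 to 6864 CPM in control males, 265 to 514 CPM in stressed males, 202 to 2539 CPM in control females and 158 to 370 CPM in stressed females. Control dam 3, which sets the upper ends, is also the dam whose pups were highest in Hist1h1c and Hist1h4i, and their log2 fold changes without it are given above. The 8 B cell markers had medians of 0.26 in males and 0.44 in females and the 8 markers of crypt stem cells 0.06 and -0.06, and none passed; at an unadjusted p under 0.05, 1 crypt marker was higher in stressed males.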

How the data were processed

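Total RNA was extracted from 12 ileum samples, per the labels' protocols, and sequenced after a library step whose selection is not known here. The authors deposited raw read counts of 35275 genes and, in a second table, FPKM values. Their deposited comparisons give log2 fold changes. These also hold, per the file headers, each gene's p-value, raw and adjusted. Of upstream tools the submitters' processing notes list HTSeq 0.6.1, STAR 2.5, TopHat, edgeR 3.16.5 and DESeq2, with the builds mm10 and GRCm38. Annotation release: not given in the sources used here. The deposited FPKM equalled the count over gene length and library total, within 1e-06, for each of 240813 nonzero counts.

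Members and gene lists were chosen with earlier results of these data known. Counts were tested with edgeR 4.0.16 under R 4.3.3 (quasi-likelihood test, TMM, filterByExpr defaults, Benjamini-Hochberg over all genes tested, threshold 0.05): 1 fit of 4 groups of 3 for the sexes, their difference and males against females, and 1 fit of 3 against 3 summed litters. The tests were tested on simulated data with 100 genes changed by 2-fold and 100 by 4-fold. The changed genes were drawn from all genes past the filter, and pups were simulated independently, without a litter effect. The tests recovered 28 and 80 of the changed genes in males (15997 genes), 35 and 74 in females (15965 genes), 7 and 52 in the difference (15997 genes), 66 and 87 over dams (16089 genes), and 66 and 92 between the sexes (15992 genes).

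Named are the 3 members of highest mean FPKM in each family, the 3 of smallest unadjusted p in each comparison, the 3 widest in range, and the 3 of highest mean CPM of each list described; members whose groups did not overlap and other members were named after their values were seen. Alternatives were DESeq2 1.42.0 and its size factors, limma-voom (limma 3.58.1), a filter at a mean of 1 CPM or none, log2(FPKM + 1) or log2(FPKM + 0.1) in limma, each library left out, the libraries of 1 sex alone, a replicate block, 12 pups with sex as a covariate, and fits without control dam 3 or without the 3 Yam1-rich libraries. The label's number is that of the litter, so littermates pair between the sexes; the correlation of their deviations ran from -0.362 to 0.545. Stressed and control dams of 1 number are unrelated (-0.329 to 0.306).

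Stem-loops and shared 50-base stretches were read from GENCODE M21 transcripts, in which 50 of the 52 members were found, and promoters from RefSeq.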

Additional observations from a re-analysis of the deposited data

How the results depend on the processing

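The count of members past the threshold was 0 in all 5 comparisons under every alternative run, with 1 exception: without stressed male 2, males against females gave 2 members. Leaving out 1 library moved the count of all genes from 0 to between 0 and 1 in males and from 8 to between 8 and 1384 between the sexes, and the count of members between the sexes to between 0 and 2. Between the sexes, DESeq2 called 18 genes and the fit without the 3 Yam1-rich libraries 5. That fit leaves 1 stressed male, which is assumed to vary like the other groups. With the dam as a replicate block, 7 genes and 0 members passed between the sexes, and no other call changed with the block.

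Of the log2 fold changes of named members, 310 of the values under alternatives kept their direction and side of the threshold. Hist1h2af in males ran from -0.023, a reversal, without stressed male 3 to 2.48 without control male 1. It also reversed, to -0.37, without the 3 Yam1-rich libraries, and passed between the sexes without stressed male 2. The median over members ran from -0.31 to 0.24 in males, -0.34 to 0.0029 in females, -0.27 to 0.24 in the difference, -0.17 to 0.025 over dams and -0.30 to 0.12 between the sexes. Its sign is thus not settled across these alternatives. Some of them, such as the filter at a mean of 1 CPM, change the members that enter the median.

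Depth limits the low members: 3 counts correspond to 0.131 to 0.183 CPM, and 31 members were not tested. In simulated data of these sizes edgeR recovered 28 of 100 genes changed by 2-fold in males. These were drawn from genes of all levels past the filter, so the recovery for low members alone is not given by it.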
